A study of Rattus norvegicus with 18 samples.

Results

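The immediate early response genes followed here are Fos, Jun, Junb, Egr1, Atf3, Ier2, Ier3, Myc and Nr4a1, measured in the whole kidneys of 18 rats. Every probe set that the platform annotation assigned to 1 of these 9 genes alone was taken, which gave 12 of the 31042 probe sets on the Affymetrix Rat Genome 230 2.0 array. Of the 12, 11 passed the filter on dim probe sets and were tested, among 18625 tested in all. Jun had 3 probe sets and Fos had 2, and each other gene had 1. The member left out by the filter was the second Fos probe set (1371283_at), which was dim in every rat, at 3.1 to 24.8 intensity units.

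The rats were 9 of the congenic strain S.SHR(2) and 9 of the salt-sensitive Dahl S line (SS/Jr), with 1 array per rat. In the inbred Dahl S line, hypertension and renal damage develop with age and with dietary salt. According to the labels, S.SHR(2) was bred from SS/Jr and SHR/NHsd, a spontaneously hypertensive strain, and its name places the donor segment on chromosome 2, so both groups carry the Dahl S background. The design text describes male rats taken at weeks 4, 12 and 20, but the labels give an age for 2 rats only, Dahl S replicate 2 (4 weeks) and Dahl S replicate 4 (12 weeks), both on a diet with 0.3% NaCl.

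In the order of deposit the arrays fell into 3 blocks of 6, each with 3 rats of both strains (replicates 1 to 3, 4 to 6 and 7 to 9). The 2 labelled ages lie in the first and the second block. A block is only a run of consecutive deposits here, so age, day of dissection and processing cannot be told apart between blocks. Replicate numbers only name the rats, and p-values set a difference against the spread between these rats. No block was repeated, so p-values between blocks do not cover how far repeated runs, days or ages would vary.

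Immediate early genes are transcribed within minutes of a stimulus, without new protein synthesis, because their promoters are bound in advance by factors such as serum response factor and CREB that kinases switch on. Their products, many of them transcription factors such as the AP-1 subunits Fos, Jun and Junb, then drive later waves of genes, and the transcripts themselves are short-lived. In tissues taken from animals they are known to react to ischaemia, handling and the time that passes before the tissue is preserved, and in the kidney also to tubular injury. Per the study's description, kidneys were cut into small cubes and kept in RNAlater overnight in the cold before RNA extraction.

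The promoters are shown because this regulation acts through short sequence elements near the start site. The RefSeq table (assembly GRCr8) held an entry for 4 of the 9 genes, Egr1, Ier2, Nr4a1 and Junb, each as the 250 bases before and 50 bases after the annotated start. Each is printed 5′ to 3′ on the plus strand, and capitals mark the matches to the elements that were searched on both strands: the CArG box (the element of serum response factor, searched over 10 bases), the CRE (TGACGTCA, the element of CREB), its half-site (TGACG) and the AP-1 site (TGANTCA). A half-site can lie within a CRE.
Egr1, chr18:26736828-26737127: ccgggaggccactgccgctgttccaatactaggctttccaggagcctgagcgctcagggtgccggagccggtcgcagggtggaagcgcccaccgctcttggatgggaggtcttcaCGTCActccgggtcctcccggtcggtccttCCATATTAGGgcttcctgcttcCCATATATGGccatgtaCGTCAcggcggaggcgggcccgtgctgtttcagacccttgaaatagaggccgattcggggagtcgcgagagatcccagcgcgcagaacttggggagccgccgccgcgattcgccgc
Ier2, chr19:40399123-40399422: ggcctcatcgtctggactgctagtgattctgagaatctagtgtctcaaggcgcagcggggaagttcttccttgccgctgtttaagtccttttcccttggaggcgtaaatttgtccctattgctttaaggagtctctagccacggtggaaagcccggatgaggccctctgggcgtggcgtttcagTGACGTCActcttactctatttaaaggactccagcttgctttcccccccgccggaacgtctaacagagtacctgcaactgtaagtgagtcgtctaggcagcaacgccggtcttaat
Nr4a1, chr7:134259888-134260187: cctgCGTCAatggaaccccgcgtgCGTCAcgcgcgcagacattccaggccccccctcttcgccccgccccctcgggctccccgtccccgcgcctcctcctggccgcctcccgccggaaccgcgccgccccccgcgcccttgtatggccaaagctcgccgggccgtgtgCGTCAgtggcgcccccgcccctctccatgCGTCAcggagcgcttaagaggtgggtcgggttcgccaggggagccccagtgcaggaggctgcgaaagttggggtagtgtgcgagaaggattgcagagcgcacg
Junb, chr19:40080876-40081175: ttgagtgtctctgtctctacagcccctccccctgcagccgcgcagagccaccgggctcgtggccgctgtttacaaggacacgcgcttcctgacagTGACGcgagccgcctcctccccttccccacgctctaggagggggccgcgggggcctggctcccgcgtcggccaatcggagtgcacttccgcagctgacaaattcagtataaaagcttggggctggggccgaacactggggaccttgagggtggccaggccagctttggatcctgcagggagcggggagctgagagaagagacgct

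The Egr1 window held 2 CArG boxes, CCATATTAGG and CCATATATGG, which begin 105 and 83 bases before the start, and 2 CRE half-sites. A CArG box was found in 1.64% of all 33469 promoters of the table. The Ier2 window held 1 full CRE, 66 bases before the start, which contains 2 half-sites. Full CREs were found in 1.83% of all promoters. The Nr4a1 window held 4 half-sites and the Junb window held 1, and 21.2% of all promoters had at least 1. The AP-1 site was matched in 0 of these 4 windows and in 7.33% of all promoters. A match is a description of the letters, not evidence of a bound site.

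The labelled tissue fitted its markers: 8 of 9 kidney defining markers, such as Lrp2 and Umod, had a probe set and all 8 passed the filter in these arrays. The trimmed mean of the intensities was 150 on each array, no 2 arrays were identical, and the lowest correlation between a pair of arrays across probe sets was 0.941. The 3′/5′ ratio of the GAPDH control, which rises as RNA is degraded, was 1.27 to 2.51 in S.SHR(2) and 1.19 to 2.04 in Dahl S. By block it was 1.19 to 2.51, 1.28 to 2.04 and 1.50 to 1.60. The beta-actin ratio was 2.22 to 6.83, 3.14 to 5.88 and 2.27 to 3.004 in the 3 blocks. Of the markers of other cell types (injury, macrophage, erythroid and adipocyte genes are given with the blocks), skeletal muscle (4 with a probe set), neutrophil (3) and lymphocyte (5) genes were all below the filter, and of 4 adrenal genes 1 passed it. The dim lymphocyte genes summed to 34.5 to 87.3, 84.2 to 118.4 and 107.6 to 156.2 units in the 3 blocks, which was not tested. Sums of the muscle and the neutrophil genes overlapped between all blocks. By strain the dim neutrophil genes summed to 10.9 to 30.2 in S.SHR(2) and 28.3 to 74.1 in Dahl S, which was not tested. No marker was at 0 in any rat. As whole kidneys were measured, fewer cells of a type and less RNA per cell cannot be told apart.

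Fos, the AP-1 subunit that is the classic marker of acute activation, varied more between rats of the same strain and block than any other probe set tested, except with a pseudocount of 1, where it ranked 2. Its intensity in S.SHR(2) replicates 1 to 9 was 29.4, 51.5, 26.2, 31.8, 211, 76.5, 51.4, 512 and 80.6. In Dahl S replicates 1 to 9 it was 68.1, 118, 163, 46.3, 349, 88.2, 387.5, 255 and 66.9. High and low rats occurred in both strains, and the 18 values spanned 19.5-fold, with S.SHR(2) replicate 8 and Dahl S replicate 7, both of the third block, at the top.

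Egr1, a zinc finger factor of the early wave whose promoter opens the set above, also varied widely. In S.SHR(2) it was 503, 469.5, 383, 194, 439, 208, 181, 826 and 388 in replicates 1 to 9. In Dahl S it was 233, 315, 677, 183, 634, 261, 733, 578 and 243. The highest rats were again S.SHR(2) replicate 8 and Dahl S replicate 7, and the lowest was S.SHR(2) replicate 7 of the same block.

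**Figure D1:**
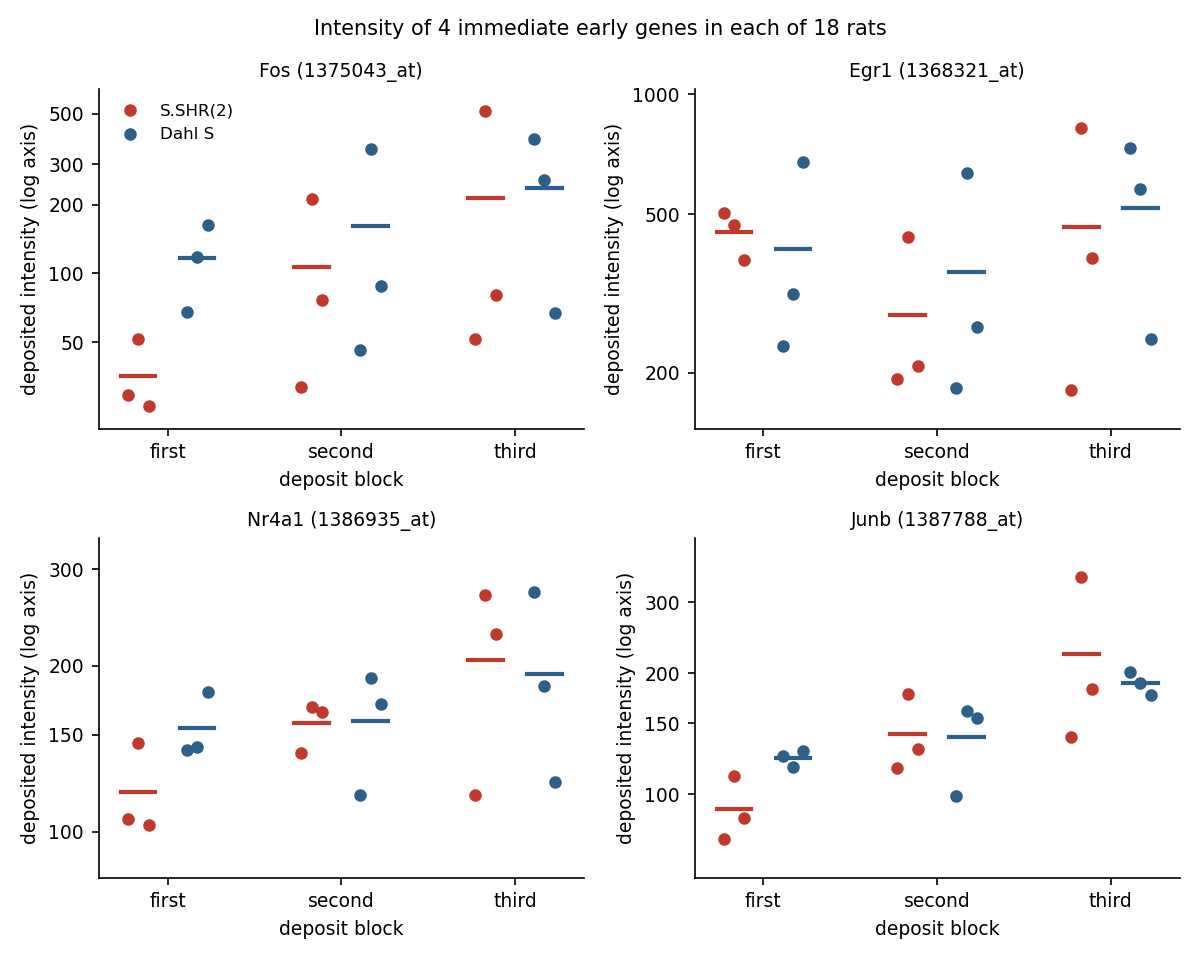
Deposited intensity (log axis) of Fos, Egr1, Nr4a1 and Junb by deposit block, with S.SHR(2) in red left of Dahl S in blue. Each point is 1 rat and each line the mean of 3, and S.SHR(2) replicate 8 is the highest point for Fos (512), Egr1 (826) and Junb (346).

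The spread was measured as the SD of log2(intensity + 16) between rats within strain and block, pooled over the 6 sets of 3 rats. For Fos it was 1.10, the highest of 18625 probe sets, of which the median was 0.19. Egr1 had an SD of 0.76 and ranked 7. Nr4a1, an orphan nuclear receptor of the same early wave, had an SD of 0.36 and ranked 909.

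The other members were less extreme. Their SDs were 0.26 to 0.34, at ranks from 1360 for a Jun probe set to 4026 for Ier2, so all 11 lay above the median with all rats in. These ranks moved more than that of Fos when 1 rat was left out: Jun 1374404_at fell below the median without Dahl S replicate 4 (SD 0.18, rank 11317), Atf3 ranked 6306 without Dahl S replicate 5 and Junb 6787 without S.SHR(2) replicate 8. The rank of Fos stayed at 1 when each rat was left out in turn, with SDs of 0.95 to 1.15, and Egr1 ranked 139 with a pseudocount of 1 in place of 16. Without S.SHR(2) replicate 8 and Dahl S replicate 7, which was tried after their values were seen, Fos still ranked 1 (SD 0.93) and Egr1 ranked 19 (SD 0.68).

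**Figure D2:**
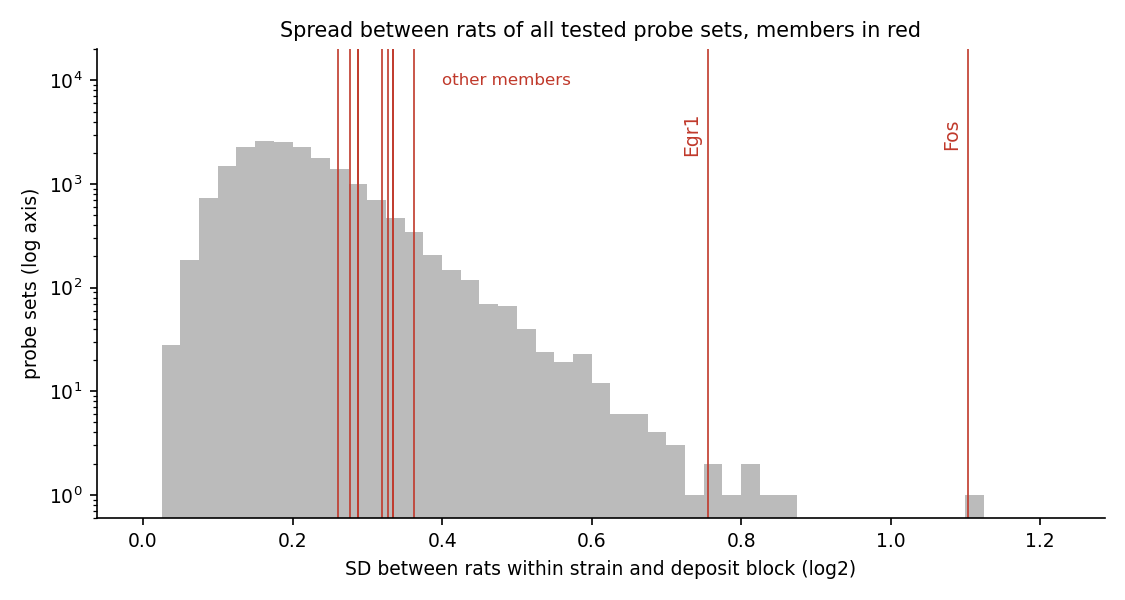
Number of tested probe sets (log axis) by their SD between rats within strain and block on the log2 scale, with the 11 member probe sets as red lines. Fos lies at 1.10 and Egr1 at 0.76, while the median of all 18625 is 0.19.

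Nr4a1 had 105, 145, 103, 139, 168, 165, 117, 269.6 and 228 units in S.SHR(2) replicates 1 to 9. In Dahl S replicates 1 to 9 it had 141, 142, 179, 117, 190.4, 170.5, 273, 184 and 123. Its highest rats were those of Fos, Dahl S replicate 7 and S.SHR(2) replicate 8. Across the 18 rats its log2 values correlated with those of Fos at r = 0.84, the highest of 18624 other probe sets, of which the median was 0.00.

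Junb, an AP-1 subunit, followed at r = 0.80 (rank 4), and Egr1 at r = 0.70 (rank 27). After the mean of each strain and block had been subtracted, Egr1 was the most like Fos of all probe sets (r = 0.93), with Junb at 0.82 (rank 14) and Nr4a1 at 0.80 (rank 24). These are descriptions over 18 rats, 1 array each, in which any 2 genes are read from the same array and RNA of a rat, and they carry no test. Within the blocks of 6 rats, Nr4a1 correlated with Fos at 0.91, 0.79 and 0.81, and Junb at 0.86, 0.83 and 0.77. Egr1 reached 0.97 and 0.96 in the second and the third block but 0.14 in the first, where it was at 383 to 503 in all 3 S.SHR(2) rats while Fos was at 26.2 to 51.5.

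**Figure D3:**
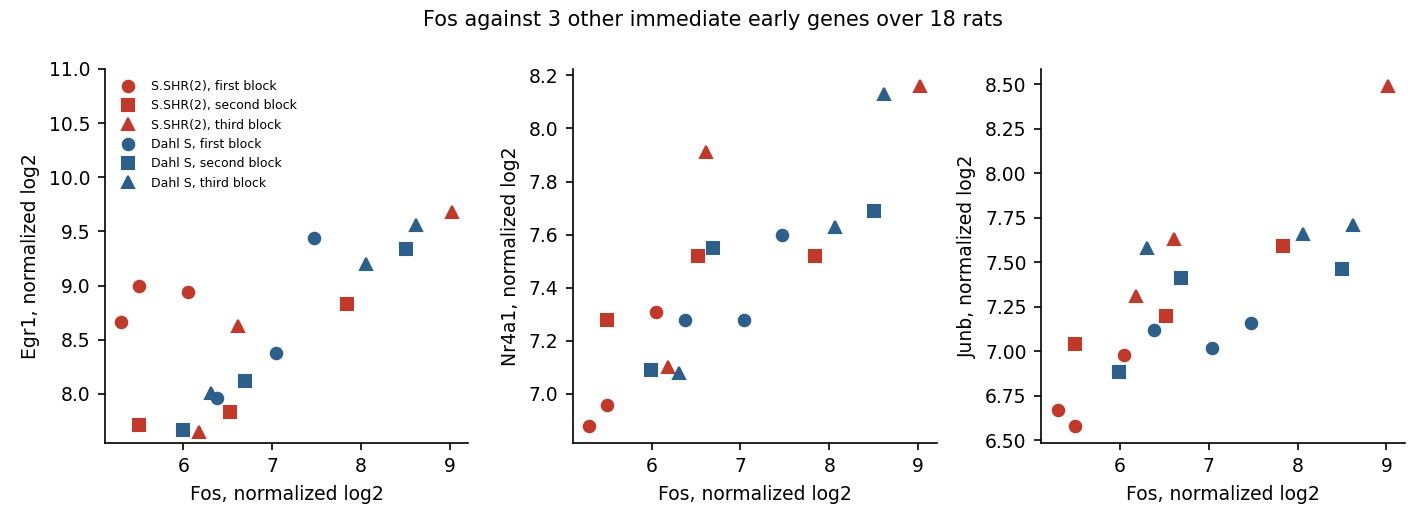
Normalised log2 values of Egr1, Nr4a1 and Junb against those of Fos, 1 point per rat, with S.SHR(2) in red, Dahl S in blue and the deposit block as the shape. Rats high in Fos tended to be high in all 3 (r = 0.70, 0.84 and 0.80), and the 3 S.SHR(2) rats of the first block lie above the others at low Fos for Egr1.

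The remaining members were less like Fos. Atf3, a stress-induced factor that also takes part in the integrated stress response, reached r = 0.56, Ier3, an early gene linked to cell survival, 0.54, and Ier2 0.53. Myc, the growth regulator, reached 0.49. Of the Jun probe sets 1369788_s_at reached 0.57, whereas 1389528_s_at was at 0.11 and 1374404_at at −0.16. After strain and block means had been subtracted, these Jun probe sets were at 0.57, 0.52 and 0.40. By that measure Atf3 was at 0.69, Ier2 at 0.64, Ier3 at 0.54 and Myc at 0.41. Within the third block Ier3, Myc and Ier2 reached 0.95, 0.91 and 0.84, against 0.35, −0.43 and −0.28 within the first.

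Among genes outside the members, those most like Fos over the 18 rats were Rasd1 (r = 0.82), a small G protein, Medag (0.81), Vsig10 (0.79), Cebpd (0.78), a transcription factor of the acute phase, Msrb3 (0.76), Cnpy4 (0.76), Plekhm2 (0.74) and Dusp1 (0.73), the phosphatase that ends MAP kinase signals. After strain and block means had been subtracted they were Medag (0.88), Smoc2 (0.86), Rasd1 (0.85), Vim (0.85), the intermediate filament vimentin, Fblim1 (0.84), Cebpd (0.83), Mknk2 (0.83) and Mrps5 (0.83). Rasd1, Medag and Cebpd were named by both measures.

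With the brightest probe set taken for each member gene, S.SHR(2) replicate 8 stood highest. Of the 9 genes, 6 were highest of all 18 rats in it after normalisation (Fos, Egr1, Junb, Ier2, Ier3 and Nr4a1) and 8 had it among the 3 highest rats. Its mean deviation from the average of all rats was 0.98 on the log2 scale. Dahl S replicate 7 followed at 0.69, with 8 of the 9 genes among the 3 highest rats, and Dahl S replicate 8 at 0.49. All 3 rats are of the third block, whose S.SHR(2) replicate 7 (−0.17) and Dahl S replicate 9 (−0.09) were below the average.

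The third block thus held rats well above and well below its own mean. Relative to the mean of its block, S.SHR(2) replicate 8 was at 0.64, S.SHR(2) replicate 7 at −0.51 and Dahl S replicate 9 at −0.44. In the second block Dahl S replicate 5 was at 0.44 and Dahl S replicate 4, one of the rats of labelled age, at −0.46, with 7 of the 9 genes lowest in its block. In the first block Dahl S replicate 3 was at 0.34, with 5 of the 9 genes highest.

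**Figure D4:**
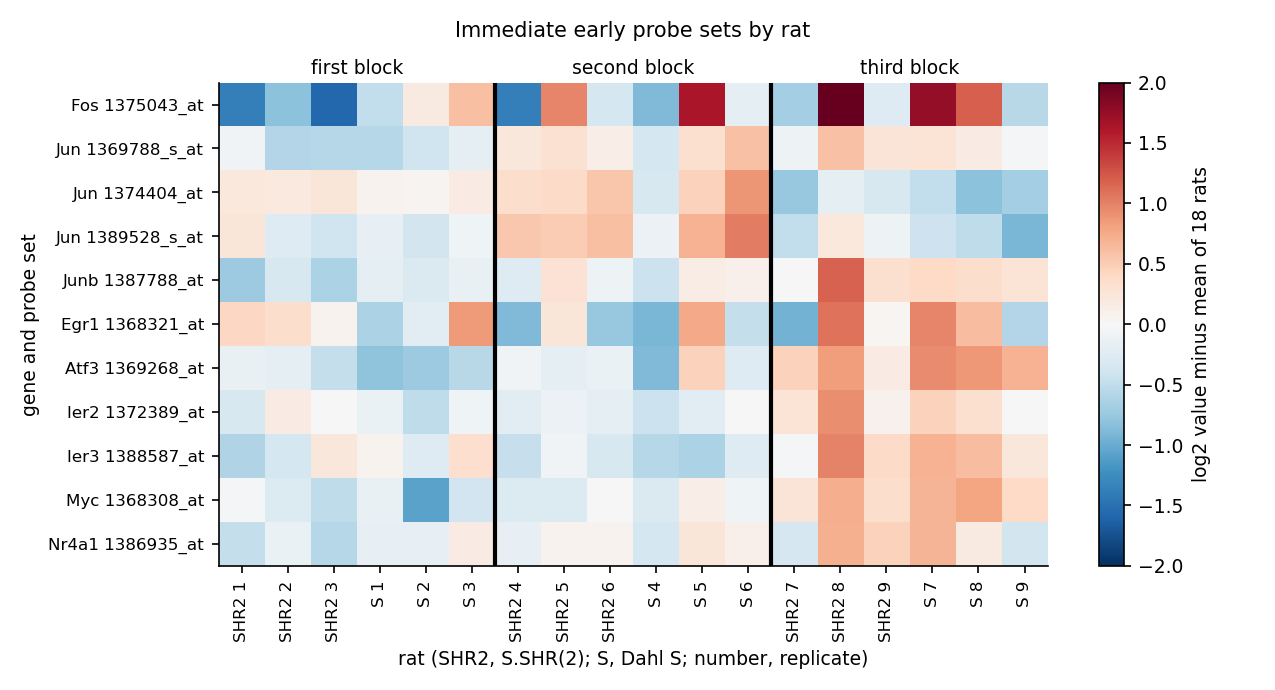
Normalised log2 value of each tested member probe set in each rat, minus its mean over 18 rats, with S.SHR(2) left of Dahl S within each deposit block. The colours end at 2.0, and the column of S.SHR(2) replicate 8 (SHR2 8) is red for 10 of the 11 probe sets.

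The RNA control ratios were set beside these rats. The rat highest in Fos, S.SHR(2) replicate 8, had a GAPDH 3′/5′ ratio of 1.50, the low end of its block. The rat with the highest ratio of all 18, S.SHR(2) replicate 1 (2.51, and 6.83 for beta-actin), had Fos at 29.4. In the second block the 2 rats highest in Fos, S.SHR(2) replicate 5 and Dahl S replicate 5, also had the highest GAPDH ratios of that block, 1.74 and 2.04. Their beta-actin ratios, 4.67 and 5.88, were the highest of that block too. The part of these ratios in the Fos values is taken up next. The part of the control ratios in the Fos values was not tested.

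Between the strains, none of the 11 member probe sets differed beyond the spread between rats. With limma over 18 rats, 0 of 11 passed an adjusted p of 0.05, beside 0.123% of all probe sets tested, and 0 of 11 had an unadjusted p under 0.05, beside 4.02% of all. The largest difference was that of Fos, which averaged 119 ± 158 in S.SHR(2) and 171 ± 129 in Dahl S (SD, n = 9 each), a log2 difference of −0.73 ± 0.464 (SE, limma adjusted p = 1). Egr1 averaged 399 ± 202 in S.SHR(2) and 428 ± 222 in Dahl S, with a difference of −0.08 ± 0.301. At this spread a difference of that size was not detectable with 9 rats a strain, which does not show that the strains are alike.

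The other members lay closer to 0. Nr4a1 averaged 160.0 ± 56.5 in S.SHR(2) and 169 ± 47.4 in Dahl S, and Junb 152 ± 81.2 in S.SHR(2) and 149.9 ± 35.0 in Dahl S. Atf3 averaged 53.0 ± 19.4 in S.SHR(2) and 58.8 ± 38.6 in Dahl S. The log2 differences of all members other than Fos ran from −0.08 for Egr1 to 0.19 ± 0.221 for Jun 1389528_s_at, and adjusted p was 1 for each. None of the 9 genes lies on chromosome 2 in GRCr8, and 0 of the 11 probe sets had strain ranges that did not overlap, beside 0.102% of all.

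Within the blocks, 3 rats against 3, Fos was lower in S.SHR(2) each time, at −1.35, −0.44 and −0.39 on the log2 scale. In the first block Fos was 29.4, 51.5 and 26.2 in S.SHR(2), against 68.1, 118 and 163 in Dahl S, and the ranges did not overlap. There, 4 of the 11 probe sets had separate ranges, beside 10.8% of all probe sets. Fos and Junb were lower in S.SHR(2) (log2 difference of Junb −0.35), and Atf3 and Jun 1374404_at were higher (0.41 and 0.13). The second and the third block had 0 of 11, beside 9.21% and 18.9% of all. The differences of Atf3 were 0.41, 0.10 and −0.35 in the 3 blocks, so the sign of the first was not that of the third.

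A test of whether the strain difference was unlike in the blocks (the interaction in limma) called 0 of 11 members, beside 0.00537% of all probe sets. Their adjusted p-values were 0.77 to 0.98, and 0 of 11 had an unadjusted p under 0.05, beside 6.56% of all.

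Between the deposit blocks, with strain in the model, most member probe sets differed, and 5 of the 9 genes were both called and highest in the third block. The limma F test called 8 of 11 probe sets (adjusted p under 0.05), beside 50.1% of all probe sets, so the blocks differed over the whole array and a call between them is common. Of the 11, 5 were called and highest in the third block, namely Atf3, Myc, Junb, Ier3 and Ier2, beside 20.9% of all. The 3 called and highest in the second block, beside 13.2% of all, were probe sets of 1 gene, Jun. For Jun 1369788_s_at the second and the third block were level (the third minus the second −0.008 ± 0.134, limma adjusted p = 0.97). Fos (adjusted p = 0.12), Nr4a1 (0.091) and Egr1 (0.29) were not called.

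Atf3 averaged 33.1 ± 8.17, 45.0 ± 17.98 and 89.6 ± 22.4 in the first, the second and the third block (SD, n = 6 each). The third block lay above the first by 1.15 ± 0.18 (SE, limma adjusted p = 2.1e-05) and above the second by 0.84 ± 0.18 (adjusted p = 8.6e-04). The lowest, median and highest rats were at 22.7, 31.55 and 42.8 in the first block and at 18.8, 42.9 and 74.7 in the second. In the third, the values of S.SHR(2) replicates 7 to 9 were 70.0, 96.8 and 55.9, and those of Dahl S replicates 7 to 9 were 116, 105 and 94.3. All 6 lay above the 42.8 that was the highest of the first block, while Dahl S replicate 5 of the second block reached 74.7.

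Myc, which drives growth and ribosome production, averaged 40.4 ± 11.4, 50.1 ± 8.38 and 87.7 ± 17.1 in the 3 blocks. The lowest, median and highest rats were at 20.4, 41.9 and 52.5 in the first block and at 41.0, 49.7 and 61.6 in the second. In the third block it was 64.9, 96.3 and 74.0 in S.SHR(2), and 101.4, 109 and 80.8 in Dahl S. Every one of these 6 rats lay above all 12 others, which held for no other member and for 4.09% of all probe sets. Myc in the third block exceeded the first by 0.94 ± 0.151 (limma adjusted p = 2.9e-05) and the second by 0.66 ± 0.151 (adjusted p = 0.0015).

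Junb averaged 107 ± 20.6, 139.6 ± 29.7 and 206 ± 72.1 in the 3 blocks, the last mean including 346 in S.SHR(2) replicate 8. The third block exceeded the first by 0.81 ± 0.16 (limma adjusted p = 3.1e-04) and the second by 0.47 ± 0.16 (adjusted p = 0.027). Its block ranges overlapped between the first (77.4 to 128) and the second (98.8 to 177), while the third ran from 138 to 346.

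Ier3 averaged 527 ± 133, 424 ± 66.9 and 809 ± 220.0, and exceeded the second block by 0.87 ± 0.159 (adjusted p = 1.8e-04). The lowest, median and highest rats for Ier3 were at 363, 515.5 and 698, at 357, 414 and 536, and at 563, 791 and 1182 in the 3 blocks. Ier2, a small nuclear protein of the early wave, averaged 85.3 ± 15.8, 80.5 ± 9.89 and 127 ± 34.1, and exceeded the second block by 0.54 ± 0.132 (adjusted p = 0.0029).

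For Ier2 the ranges were 65.4 to 108, 63.9 to 94.2 and 98.2 to 188.5. By their means Ier3 and Ier2 were thus lowest in the second block, whereas Atf3, Myc and Junb were lowest in the first. The difference of the second from the first block was not called for any of these genes (limma adjusted p from 0.14 for Junb to 0.83 for Ier2). All 6 rats of the third block were above all 6 of the second for Ier2, Ier3 and Myc (3 of 11, beside 9.49% of all probe sets). They were above all 6 of the first for Junb, Atf3 and Myc (3 of 11, beside 8.48%), and 0 of 11 probe sets had the second block wholly above the first (beside 4.54%). The comparisons of the third block with the first and with the second share the third block's rats.

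Fos averaged 76.0 ± 54.1, 134 ± 123 and 226 ± 193 in the 3 blocks, and the third exceeded the first by 1.18 ± 0.483 (limma adjusted p = 0.055). Without S.SHR(2) replicate 8 and Dahl S replicate 7 the block means of Fos spanned 0.55 on the log2 scale (adjusted p = 0.44 for the F test), and without Dahl S replicate 9, the third block's second lowest rat, they spanned 1.51 (adjusted p = 0.034). Nr4a1 averaged 136 ± 28.4, 158 ± 26.2 and 199 ± 69.4, and passed between the third and the first block alone (0.45 ± 0.173, adjusted p = 0.041) though not in the F test. Egr1 averaged 430.0 ± 156, 319.7 ± 181 and 491 ± 263, and the third block differed from the first by 0.06 ± 0.33 (adjusted p = 0.91). Fos, Nr4a1 and Egr1, which went together from rat to rat, were thus not called between blocks by the F test, whereas Junb, which also went with Fos, was.

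The probe sets of Jun, the main partner of Fos in AP-1, disagreed with one another. Jun 1369788_s_at averaged 314 ± 54.5, 486 ± 98.8 and 488 ± 94.6 in the 3 blocks and was higher in the third than in the first by 0.59 ± 0.134 (limma adjusted p = 0.0012). Jun 1374404_at averaged 122 ± 6.81, 148 ± 41.7 and 68.6 ± 14.4 and the mean of the third block was the lowest, with a log2 difference of −0.70 ± 0.141 from the first (adjusted p = 3.7e-04). Jun 1389528_s_at averaged 438 ± 83.4, 743 ± 176 and 393 ± 114 and differed in the third from the second block by −0.92 ± 0.161 (adjusted p = 1.2e-04). The 3 agree in a higher second than first block, called for 1369788_s_at and 1389528_s_at, and disagree on the third, so no direction is given for Jun there. In the annotation 1374404_at and 1389528_s_at carry the same accession, and no probe sequences were used here.

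**Figure D5:**
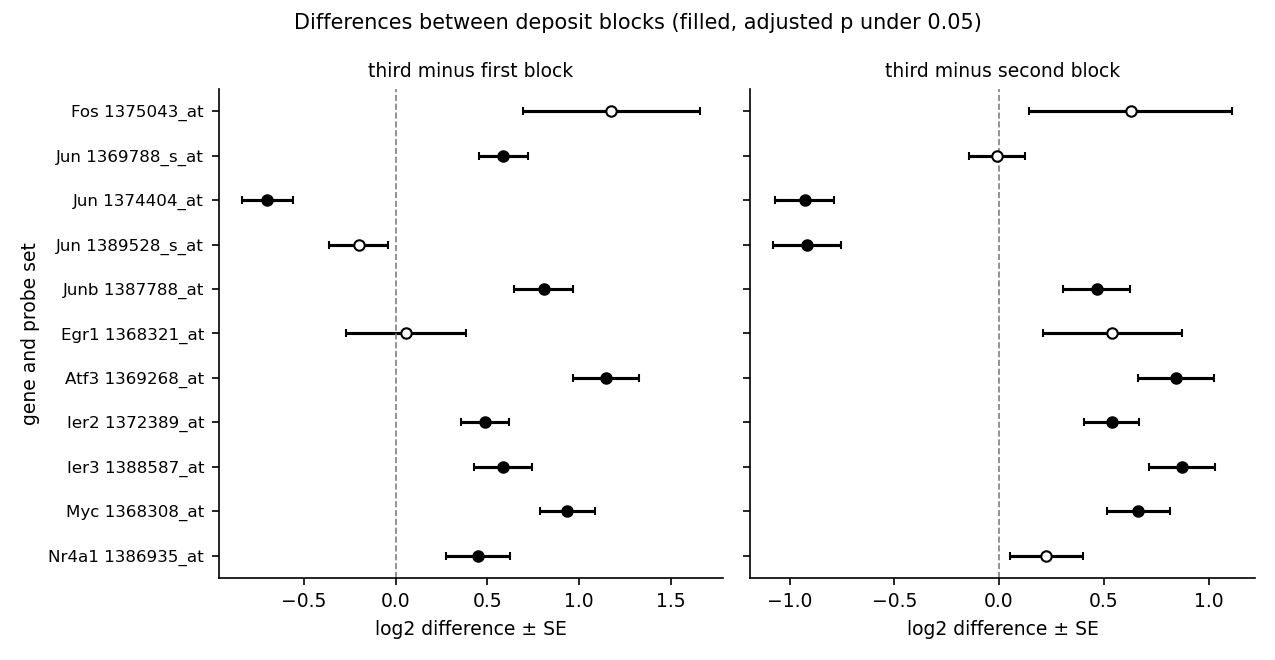
Log2 difference (± SE) of the third minus the first and the third minus the second deposit block for each tested member probe set, filled where the limma adjusted p is under 0.05. Against the first block Atf3 (1.15), Myc (0.94) and Junb (0.81) lie above 0 and Jun 1374404_at below it (−0.70).

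Taken by pairs of blocks, 7 of 11 member probe sets were called higher in the third than in the first, beside 20.7% of all probe sets. Against the second block 5 were called higher in the third, beside 17.7% of all, and the 2 Jun probe sets lower, beside 16.9%. Of second over first, 2 of 11 were called higher, both of Jun, beside 9.93%. Counted by genes, with the brightest probe set of each, 6 of the 9 were called higher in the third than in the first block, beside 21.1% of 10483 genes. By that count 0 were called lower, beside 18.4%. With S.SHR(2) replicate 8 and Dahl S replicate 7 left out, 8 of 11 members were called by the F test, the same number as with all rats. Over all probe sets 8138 were then called, against 9336 with all rats.

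Other genes of the early response were then counted, each by its brightest probe set over 10483 genes, of which 49.9% were called between blocks by the F test, 21.7% called and highest in the third and 16.4% called and highest in the first. The adjusted p-values below are those of the difference of the third from the first block, unless the F test is named. Of 36 further immediate early genes, 33 had a probe set, 24 were tested, 16 were called, and 10 of those were highest in the third block and 4 in the first. Higher in the third than in the first block were 8 of the 24, beside 21.1% of all genes, and lower were 4, beside 18.4%. Klf4, a zinc finger factor, averaged 145, 131 and 247 in the 3 blocks (the third minus the first block 0.72, limma adjusted p = 2.0e-05). The early response genes Rhob (0.48, adjusted p = 1.1e-04), a small GTPase, and Nr4a2 (0.61, adjusted p = 0.0027), a relative of Nr4a1, were likewise highest in the third block. Ptgs2, the inducible cyclooxygenase, went the other way, with 132, 31.1 and 27.1 (−1.76, adjusted p = 3.0e-08), as did Klf2, a factor known from endothelium, with 466.05, 309 and 350.1 (−0.43, adjusted p = 6.9e-04). Over the 24 genes the median difference of the third minus the first block was 0.22, beside 0.02 over all genes.

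Feedback inhibitors, which include phosphatases and RNA-binding proteins that shut the early response off, gave 10 of 16 called, 6 of them highest in the third block. Zfp36, which promotes the decay of early response transcripts, averaged 163 ± 49.1, 169 ± 26.3 and 461 ± 185 and exceeded the first block by 1.35 ± 0.209 (limma adjusted p = 1.8e-05). Nfkbia, the inhibitor of NF-kappa B, was higher by 0.47 (adjusted p = 0.0095) and Zfp36l1, a relative of Zfp36, lower (−0.18, adjusted p = 0.046). Dusp1, which was like Fos from rat to rat, was at 0.10 (adjusted p of the F test = 0.78). Of 12 upstream kinases and factors tested, 7 were called and 3 were highest in the third block, and Elk4, a partner of serum response factor, was lower than in the first (−0.93, adjusted p = 1.6e-07), as was Creb1, which encodes CREB (−0.79, adjusted p = 1.6e-05). AP-1 partners had 3 tested genes and 2 called, Atf4 (0.56, adjusted p = 0.002) and Jund. Jund was lowest in the third block, at −0.22 from the first (adjusted p = 0.057) and −0.36 from the second (adjusted p = 0.0033). The Myc network had 4 of 11 called, 0 of them highest in the third block.

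Stress pathways varied in direction. In the integrated stress response, 10 of 13 genes were called and 7 were highest in the third block, with Sesn2 at 378, 579 and 902 in the 3 blocks (the third minus the first block 1.20, limma adjusted p = 4.2e-10) and Asns, asparagine synthetase, at 82.5, 172 and 184 (1.03, adjusted p = 7.8e-09). Hspa5, a chaperone of the endoplasmic reticulum in the same list, was lower (−0.53, adjusted p = 9.9e-05). Heat shock genes were called in 6 of 9 cases, 4 of them highest in the first block (16.4% of all genes were), with the small heat shock protein Cryab at −1.05 (adjusted p = 3.5e-09). Glucocorticoid-induced genes were called in 8 of 11 cases, 4 highest in the third block and 3 lowest there. The metallothionein Mt2A was at 1.08 (adjusted p = 3.0e-06) and the transcription factor Cebpb at 0.84 (adjusted p = 9.9e-05), while Klf9, a zinc finger factor, was at −0.06 (adjusted p = 0.57) and lay below the second block (−0.34, adjusted p = 0.0014). Over the 11 genes the median was −0.06, and 5 lay above 0. Hypoxia genes were called in 7 of 10 cases, with 3 highest in the first block and 2 in the third. Between the strains 0 genes of these lists passed limma at an adjusted p of 0.05, beside 0.0763% of all genes.

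Markers of tubular injury and of macrophages moved with the blocks as well. All 10 injury markers were called by the F test and highest in the third block, beside 21.7% of all genes. Of the 10, 8 were called higher in the third than in the first block, beside 21.1% of all genes. Against the second block 10 were called higher, beside 1961 of 10483 genes. Among them Havcr1, the kidney injury molecule, was at 23.3, 259 and 582 (the third minus the first block 3.89, limma adjusted p = 4.0e-11). The summed intensity of the 10 was 3498 to 6145 in the first block, 5800 to 7884 in the second and 8870 to 15963 in the third, highest in Dahl S replicate 7. Of 5 macrophage markers 4 were called and highest in the third block, again beside 21.7% of all genes, with Cd68 at 1.27 and Csf1r at 1.02. Called higher in the third than in the first block were 4 of the 5, and than in the second block 1. The sum of the 5 was 378 to 717, 644.5 to 815 and 632 to 1125, highest in S.SHR(2) replicate 8. The kidney defining markers summed to 29317 to 31908, 28159 to 32385 and 22498 to 26306 in deposited intensity. On the normalised log2 scale their median for the third minus the first block was −0.15. Of the 8 tested, 1 was called higher and 3 lower, beside 21.1% and 18.4% of all genes. Umod averaged 6704 units in the first and 5839 in the third block, yet was called higher after normalisation (0.23, limma adjusted p = 1.1e-04). The part of injury, of macrophages and of anything else that differed between the blocks in the levels of Atf3, Myc, Junb, Ier2 and Ier3 was not tested. Erythroid markers, which come with blood in the tissue, had 3 of 3 tested genes called by the F test and highest in the first block, beside 16.4% of all genes. Against the first block, Alas2 was lower in the third (−1.75, adjusted p = 1.8e-04), while Hbb (−0.63, adjusted p = 0.071) and Slc4a1 (−0.01, adjusted p = 0.97) did not pass. Of 6 adipocyte markers 4 were tested and 3 called by the F test, 0 of them highest in the third block. Their sum over 6 genes was 284 to 486, 402 to 490.4 and 376 to 551 in the 3 blocks, highest in S.SHR(2) replicate 8, the rat that also stood highest over the immediate early genes, and its part there was not tested.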

How the data were processed

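One Affymetrix Rat Genome 230 2.0 array was run per whole kidney. Work began from linear intensities that the authors deposited, with 1 value for each probe set on an array. They share a mean of 150 on every array after trimming 2% from each end. The program behind them is not given in the sources consulted, and detection calls, scanner files and scan dates were not used. The 57 control probe sets were left out. Values were taken as log2(intensity + 16), which understates changes of dim genes, quantile normalised because array medians spanned 0.235 (limit 0.2), and the dimmest 40% of probe sets by mean were dropped. The deposited intensities are printed in the text, and tests ran on the normalised log2 values.

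Models were fitted with limma 3.58.1 (R 4.3.3), two-sided, with an intensity trend and Benjamini-Hochberg adjustment over all 18625 probe sets: S.SHR(2) minus Dahl S without covariates, deposit block with strain in the model, and their interaction. A call is an adjusted p under 0.05, and adjusted p-values in the text are limma's. The fits were tested on simulated data. Gene names came from the platform annotation, where 20826 probe sets name 1 gene, 436 several and 9780 none. Of the 20826, 20758 matched the GRCr8 gene table, which gave symbols and chromosomes. The arrays' build is unnamed, so coordinates are given for RefSeq promoters only.

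The members and gene lists were chosen with earlier results of these data known. Named genes are all member probe sets, in each list up to 3 genes by smallest p in the strain fit and up to 3 in the block fit, and the 8 genes most like Fos by each measure. Dusp1, Cebpd and Vim also belong to lists. Alternatives were other pseudocounts, filters and normalisations, array weights, block as a covariate, fits within 1 block or strain, and each rat left out. The fit without S.SHR(2) replicate 8 and Dahl S replicate 7 was added after the data were seen.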

Additional observations from a re-analysis of the deposited data

Results flagged for a closer look

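Both values that stood apart in a group by Dixon's test belong to S.SHR(2) replicate 8. Among the 6 rats of the third block its Junb was 8.49 on the normalised log2 scale, against 7.71 in the next highest rat (346 and 201 intensity units). Among the 9 S.SHR(2) rats its Ier2 was 7.71, against 7.05 in the next highest (188.5 and 112 units). In all, 55 groups of values were examined and 2 stood apart, while chance alone marks about 1 in 20 groups. Fos did not stand apart in any group by this test.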

How the results depend on the processing

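No member was called between the strains under any alternative run, while 6 to 10 of 11 were called between blocks under the alternatives that tested all 11 (8 as reported, 6 within Dahl S, 7 within S.SHR(2), 8 to 10 with 1 rat left out). With the lowest 60% of probe sets left out, Atf3 and Myc were no longer tested. Of the 9 left, 6 were called, beside 7094 of all 12417 probe sets tested there. Over all probe sets, the 23 called between strains became 41 with array weights, 92 with block as a covariate, 5 within the first block and 46 within the third. The 9336 called between blocks became 5307 within Dahl S and 5535 within S.SHR(2), where fewer rats are tested. With 1 rat left out they were 8633 to 9574. The 1 called for the interaction became 43 with array weights and 1 to 3 with 1 rat left out. Single calls between blocks changed in 6 cases. Jun 1369788_s_at was not called within Dahl S (adjusted p = 0.063), nor Ier2 within Dahl S (0.057) or S.SHR(2) (0.0623). Fos was called without Dahl S replicate 9 (0.0337), and Nr4a1 without Dahl S replicate 9 (0.0168) or S.SHR(2) replicate 7 (0.0272). Small strain differences, none called, turned in sign in 42 of 339 cases: Myc with a pseudocount of 1 (0.0236), centred arrays (0.0130) and in the first block (0.2598); Egr1 and Jun 1369788_s_at in the first block (0.2645 and −0.0206); Atf3 with a pseudocount of 64 (−0.0003) and in the third block (−0.3613); Nr4a1 in the third block (0.1118); Junb in the second and the third (0.0214 and 0.1602); Ier3 with centred arrays (0.0174) and in the second block (0.2014). With 1 rat left out they ran from −0.1375 to 0.097 for Myc, −0.2238 to 0.0333 for Egr1, −0.0547 to 0.1748 for Atf3, −0.0265 to 0.1193 for Jun 1369788_s_at, −0.1691 to 0.006 for Nr4a1, −0.2083 to 0.0297 for Junb, −0.1795 to 0.032 for Ier3 and −1.0374 to −0.55 for Fos. The cause was not tested. Dim probe sets carry little signal over background, and 18 arrays limit the precision. No paired analysis was possible because the labels carry no replicate numbers shared between the strains.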
